A study of Arabidopsis thaliana and Nicotiana tabacum with 16 samples.

Results

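The protein-coding genes of the Arabidopsis thaliana mitochondrial genome were examined in a ribosome profiling (Ribo-seq) series, in which the fragments of mRNA that ribosomes protect from a nuclease (ribosome-protected fragments, RPFs) are sequenced. The members were all entries of the deposited count table whose identifier begins with ATMG and whose chromosome is Mt, which gave 120 of the 27628 coding sequence (CDS) entries, beside 27420 nuclear and 88 chloroplast entries. All plants were wild-type Col-0 seedlings. The rRNA-depleted libraries were made from 14-day-old seedlings digested with 600 U RNase I, depleted of rRNA fragments with oligo cocktail version 1 (V1) or version 2 (V2), and size-selected at 20 to 35 nt. A separate table held 1 ligation-free and 1 ligation-based library, also from rRNA-depleted 14-day material at 600 U RNase I. The undepleted 14-day libraries were digested with 400, 550 or 700 U RNase I, with 1 repeat library made from the same RPFs as the 700 U library, and the 14-day plants grew under 12 h light and 12 h dark on medium without added sucrose in its description. The 8-day libraries came from seedlings grown under 16 h light and 8 h dark on medium with sucrose, digested with 75, 150 or 300 U micrococcal nuclease (MNase) or with 62.5, 125 or 250 U RNase I. All undepleted RPFs were size-selected at 20 to 50 nt. The doses are the only repeats within a group and nothing names separate cultures, so every p-value here measures the spread between doses, or between V1 and V2, which may be technical.

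Plant mitochondria keep a small genome that encodes some subunits of respiratory complexes I, III and IV and of ATP synthase, proteins of cytochrome c maturation, ribosomal proteins, an intron maturase and a transport protein. The remaining subunits of these complexes are encoded in the nucleus and imported, so each complex draws on ribosomes of both the mitochondrion and the cytosol. Mitochondrial ribosomes are of bacterial type, and the lysis buffer of the study held chloramphenicol and cycloheximide, inhibitors of bacterial-type and of cytosolic ribosomes. Plant mitochondrial genomes also carry pieces of chloroplast DNA, and the nuclear genome of Arabidopsis holds a long insertion of mitochondrial DNA on chromosome 2.

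Of the 120 entries, 36 belonged to the known protein-coding genes and 84 were other open reading frames. The 36 comprised 12 entries of complex I (nad genes, some split into separately annotated trans-spliced parts), cob of complex III, 3 of complex IV (cox), 6 of ATP synthase (atp), 5 of cytochrome c maturation (ccm), 7 ribosomal proteins (rpl and rps) and the maturase and transport genes matR and mttB. Gene names were matched through RefSeq by length, place and notes for 36 of the 36. The identifiers of 2 further nad parts (nad2b and nad5c) were not among the 120 entries. All 36 reached 10 counts in at least 1 of the 12 libraries of the main table and 26 did so in all 12. Among the other 84 entries, 17 reached 10 counts somewhere and 3 did so in all 12 libraries. Of all entries, 29 had 0 counts in all 12 libraries and 67 stayed under 10 counts in each, where a count of 0 allows a share of up to 0.00360% to 0.0261% of the mitochondrial counts of a library, counting error only.

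Total CDS counts ranged between 2338819 and 11583740 per library, with the lowest totals in the undepleted 14-day libraries and the ligation-based library. Chloroplast entries took 13.6% to 23.7% of the counts. The repeat and the original 700 U library, which share their RPFs, differed over 33 mitochondrial entries by more than sampling noise, with a chi-square of 188.4 at 32 degrees of freedom, and were not pooled. Of 8 root markers, PYK10, a beta-glucosidase of root ER bodies, had 2117 to 18234 counts in the 14 libraries, while COBL9, EXPA7 and NRT2.1 were at 0 in some of the 14-day libraries. The summed root marker level was 1998 and 1212 CPM in depleted V1 and V2, 837 to 951 CPM in the 3 undepleted 14-day libraries, 1676 to 1847 CPM in the MNase libraries and 1835 to 1893 CPM with RNase I at 8 days. In bulk seedlings, fewer cells of a type and less RNA per cell cannot be told apart.

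The most counted mitochondrial entry was not a respiratory gene but ATMG00280, a frame of 330 nt at Mt:77822-78151 on the minus strand (coordinates of the deposited table, TAIR10). RefSeq describes the matching nuclear gene as the catalytic domain of the large chain of ribulose bisphosphate carboxylase, the carbon-fixing enzyme of the chloroplast that rbcL encodes. The RefSeq frame of 348 nt matched chloroplast rbcL over 305 bases (positions 543 to 847 of 1437, counted from the first base of the rbcL start codon, Pt:55500-55804) at 98.0% identity. Another copy lies in the nuclear insertion, AT2G07732 at chr2:3468427-3468774 on the minus strand, which differs from the mitochondrial frame at 1 base. From rbcL to the mitochondrial frame the 6 substitutions were A549G, G592T, A673G, T682G, A701G and T841G, and AT2G07732 carried the same 6 plus G730C. Between the substitutions, 4 identical stretches of at least 28 bases, about the length of a footprint, covered 260 of the 305 bases, and the longest spanned 110 bases. The window below holds the densest run of differences, shown because reads that span these bases differ from rbcL, with the differing bases in capitals (positions A673G, T682G and A701G). The sequences are from the RefSeq assembly TAIR10.1, each read 5′ to 3′ in the direction of rbcL.
rbcL, Pt:55599-55658, plus strand: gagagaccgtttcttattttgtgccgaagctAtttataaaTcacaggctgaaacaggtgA
ATMG00280, RefSeq mitochondrion 165084 to 165143, plus strand: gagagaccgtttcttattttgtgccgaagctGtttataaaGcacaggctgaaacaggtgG
AT2G07732, chr2:3468578-3468637, minus strand: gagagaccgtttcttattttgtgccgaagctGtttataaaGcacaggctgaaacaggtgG
The longest identical stretch, in which reads cannot be assigned to any of the 3 copies, reads as follows in rbcL (Pt:55688-55797), in ATMG00280 and in AT2G07732 (chr2:3468439-3468548).
Identical stretch: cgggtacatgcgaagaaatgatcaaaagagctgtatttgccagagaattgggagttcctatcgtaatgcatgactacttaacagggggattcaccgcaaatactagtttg
The RefSeq mitochondrial genome differs from the one behind the deposited table, so its positions are not those of the table.

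ATMG00280 held 37.1% to 71.6% of all mitochondrial CDS counts, depending on the library. Its counts were 30433 in depleted V1 and 24324 in depleted V2, 5229, 4803 and 4779 in the 14-day libraries at 400, 550 and 700 U, 28424, 46473 and 34256 in the MNase libraries, and 19563, 19779 and 29655 in the 8-day RNase I libraries. Set against rbcL, it had 5.52 and 7.36 counts per 100 rbcL counts in depleted V1 and V2, 4.51 to 5.59 in the undepleted 14-day libraries, 5.99 to 6.29 with MNase and 5.81 to 6.10 with RNase I at 8 days. The ligation-free library had the highest ratio, 8.28, and the ligation-based library had 6.71. Over the 14 libraries the ratio to rbcL spanned a 1.84-fold range, and the ratio to cox1, the catalytic core subunit of complex IV, spanned a 4.33-fold range, between 279 and 1209 counts per 100 cox1 counts. AT2G07732 had a similar number of counts again, and both copies together had 7.76 to 14.1 counts per 100 rbcL counts. How many of these counts came from rbcL footprints was not tested, and results are given below with and without ATMG00280.

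**Figure D1:**
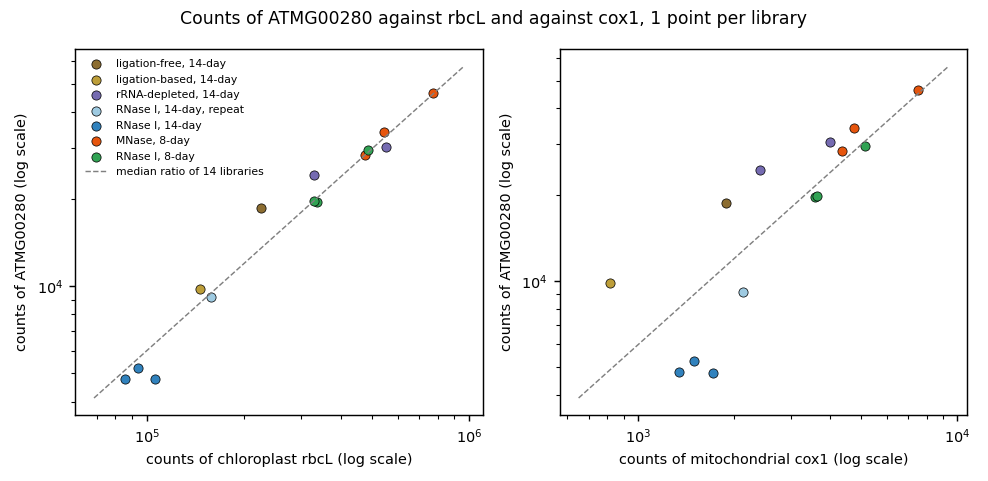
Counts of ATMG00280 in each of the 14 libraries against counts of chloroplast rbcL (left) and of mitochondrial cox1 (right), both axes on a log scale, with the dashed line at the median ratio of the 14 libraries. The points lie near the line in the left panel, where the ratio runs from 4.51 to 8.28 counts per 100 rbcL counts, and scatter more in the right panel, where it runs from 279 to 1209 per 100 cox1 counts.

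A second entry, ATMG00370, whose nuclear counterpart RefSeq describes as a Ycf1 protein after a chloroplast gene, matched the chloroplast genome over 533 bases at 97.6% identity. It was rare, with 5 to 94 counts in the 12 libraries.

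The nuclear insertion shared many other entries. Of the 120, 31 had a matching gene in the table at chr2:3239696-3503473 (13 of the 36 known genes), and 24 of these copies were identical over their match. The study kept 1 alignment for each read that maps to several places, and counts divided between the partners accordingly. In the 11 pairs with at least 1000 counts together, the nuclear copy took 42.0% to 61.1% of the pair's counts, with a median of 50.1%. It took 51.4% for atp1 (the alpha subunit of the F1 part of ATP synthase), 49.0% for atp9 (the membrane ring subunit), 51.1% for cob (cytochrome b) and 50.1% for cox3. It took 61.1% for atp6-1 and 55.6% for nad3. A further 12 known genes matched nuclear DNA over their whole length, among them nad4, nad6 and nad7. None had a nuclear gene in the table that matched at 95% identity over 80% of the entry. For nad1a, ccmFC and ccmFN2, RefSeq notes do name a nuclear gene (AT2G07785, AT2G07815 and AT2G07768). Reads placed in nuclear DNA outside any CDS would not be counted. Little of cox1 (5.6%), nad9 (20%) and rps3 (16.7%) matched nuclear DNA, and atp4 and ccmB had no match. Counts of entries with and without a copy are therefore not on 1 scale, and levels are given below as counted and then with the copies added.

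**Figure D2:**
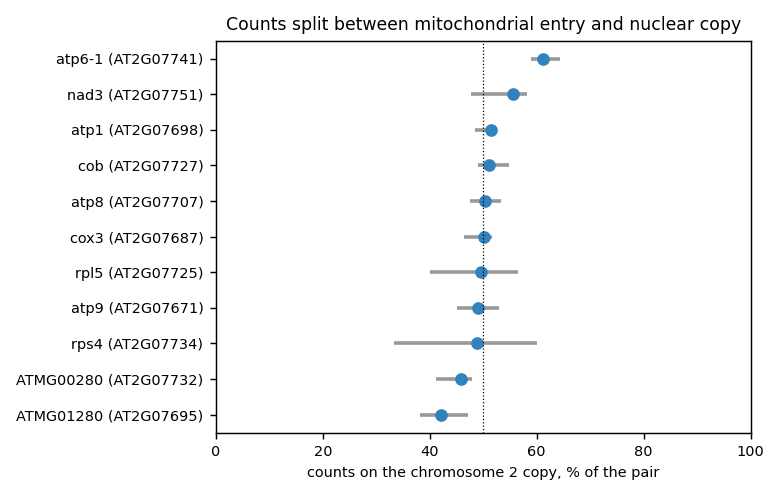
Share of the summed counts of a mitochondrial entry and its chromosome 2 copy that fell on the copy, for the 11 pairs with at least 1000 counts. Points are the share over 14 libraries and bars the lowest and highest library, with the dotted line at 50%, and the points lie between 42.0% (ATMG01280) and 61.1% (atp6-1).

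Mitochondria-encoded entries were a small part of every library. They held 0.739% and 0.696% of CDS counts in depleted V1 and V2, 0.483%, 0.491% and 0.393% in the undepleted 14-day libraries at 400, 550 and 700 U, 0.758%, 0.719% and 0.695% in the MNase libraries at 75, 150 and 300 U, and 0.828%, 0.832% and 0.814% in the 8-day RNase I libraries at 62.5, 125 and 250 U. The repeat library had 0.497%, the ligation-free library 0.642% (95% Clopper-Pearson interval 0.634% to 0.650%) and the ligation-based library 0.556% (0.546% to 0.565%), intervals that cover counting error only. The 14-day libraries without depletion were the lowest and no library of theirs reached any 8-day library.

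The mean share was 0.724% ± 0.032 in MNase libraries and 0.825% ± 0.0094 in 8-day RNase I libraries (SD, n = 3 each), with no overlap. It was 0.456% ± 0.054 in undepleted 14-day libraries and 0.825% ± 0.0094 in 8-day RNase I libraries, again with no overlap. It was 0.718% ± 0.030 in depleted libraries (n = 2) and 0.456% ± 0.054 in undepleted 14-day libraries (n = 3). In each of these 3 comparisons the 2-sided exact permutation test over libraries gave p = 0.1, the smallest these designs allow.

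Without ATMG00280 the picture changed for depletion. The remaining mitochondrial entries held 0.308% and 0.227% in V1 and V2, against 0.274%, 0.285% and 0.247% in the undepleted 14-day libraries, so the groups overlapped and the difference was -0.0014 percentage points (exact permutation p = 1). The other comparisons kept their direction. The share without ATMG00280 was 0.309% ± 0.021 in MNase libraries and 0.385% ± 0.010 in 8-day RNase I libraries, and 0.269% ± 0.020 in 14-day and 0.385% ± 0.010 in 8-day RNase I libraries (exact permutation p = 0.1 for each, n = 3 each).

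**Figure D3:**
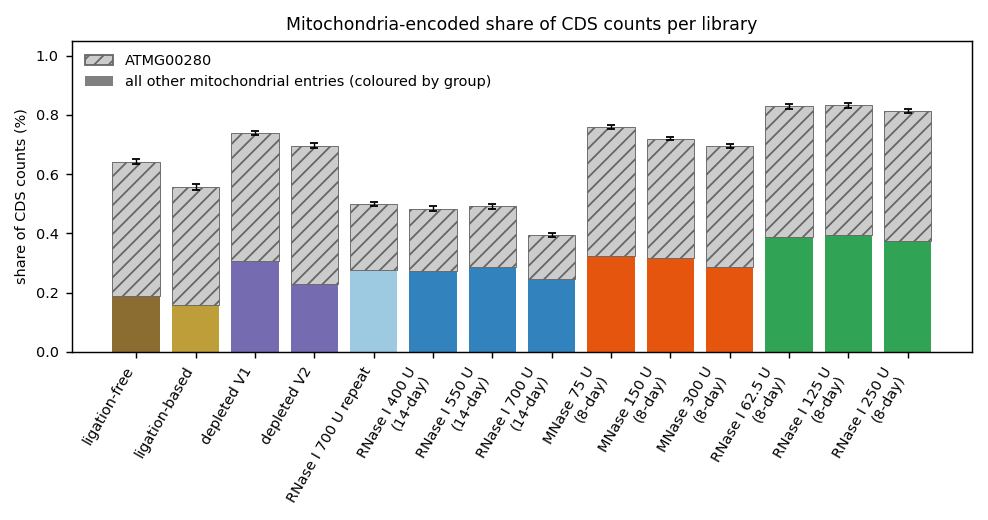
Share of CDS counts in mitochondria-encoded entries per library (percent), divided into ATMG00280 (hatched) and all other mitochondrial entries (coloured by group), with 95% Clopper-Pearson intervals on the whole share. The whole bars of the depleted libraries (0.739% and 0.696%) stand above those of the undepleted 14-day libraries (0.393% to 0.491%), and their coloured parts (0.308% and 0.227%) overlap them.

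Among all reads left after rRNA removal, those on the mitochondrial genome, counted over a CDS or not, were 3.18% and 1.90% in depleted V1 and V2, with a mean of 1.29% ± 0.070 in undepleted 14-day libraries, 1.85% ± 0.024 in MNase libraries and 2.32% ± 0.21 in 8-day RNase I libraries (SD, n = 3 each). Per 100 mitochondrial reads, 20.8 to 34.4 counts fell on a CDS entry. V1 had 20.8 and V2 had 33.8, so the libraries made with the 2 cocktails differed in where mitochondrial reads lay. Relative to all trimmed reads, rRNA included, MNase libraries had the higher mean (0.597% against 0.447% in 8-day RNase I libraries, exact permutation p = 0.3), the opposite order from that among non-rRNA reads.

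Levels of different genes were compared per kb of CDS. ATMG00280 stood apart, with a mean over the groups of 1735320 CPM per kb, with CPM taken over the mitochondrial counts of a library. As counted, without the nuclear copies, it was followed by cox2 (68122), cox1 (55295), atp9 (54419), atp1 (43291), nad9 (37832), atp4 (35822), atp8 (30581), nad4L (25177) and cox3 (19267), all in the same unit. Among the other frames, ATMG01280 (5160.0, its nuclear copy described as like subunit II of cytochrome oxidase), ATMG00040 (3459.6), ATMG00370 (1252) and ATMG01130 (636) came next. ATMG01130 had 0 to 20 counts per library of the main table, with a median of 1, so its level is near the floor. Ranks among the first of these genes were not fixed, since as counted cox2 ranged from place 1 to 4 among the libraries and atp9 from place 1 to 5 once ATMG00280 was set aside. With the copies added the order was atp9 (66223), atp1 (55536), cox2 (43051), atp8 (38147) and cox1 (34674), in the same unit.

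With the counts of nuclear copies added, and each library scaled to its own cox1, atp9, atp1, atp8 and cox2 had the highest medians. Relative to cox1, atp9 had a median of 210% (lowest 125%, highest 268%, 14 libraries) and atp1 a median of 168% (116% to 204%). These ranges overlapped, and atp9 was above atp1 in 11 of the 14 libraries and below it in the 3 undepleted 14-day libraries at 400, 550 and 700 U. Then came atp8 with a median of 112% (84.4% to 138%), cox2 with 103% (81.0% to 176%), cox3 with 77.3% (52.4% to 86.0%) and cob with 66.5% (49.7% to 74.9%), neighbours whose ranges overlapped. The other ATP synthase genes were lower, with medians of 59.1% for atp4 (52.9% to 98.3%), 34.1% for atp6-1 and 21.5% for atp6-2. The atp6 genes share most of their sequence, and the nuclear copy was added to atp6-1 alone, so counts are not divided cleanly between them.

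Complex I genes had medians below that of cob (66.5%), though nad9 was above atp4 (59.1%), and nad4L and nad3 were above atp6-1 and atp6-2. In this group the scale is mixed, since of these entries nad3 alone had a copy in the table to add, while nad1a, nad1c, nad2a, nad4, nad5a, nad6 and nad7 match nuclear DNA over their whole length with no copy to add and nad1b was not placed. The highest was nad9, a subunit of the peripheral arm, with a median of 60.1% of cox1 (49.3% to 108%), then nad4L (43.4%) and nad3 (41.7%), both small membrane subunits. The parts of the trans-spliced nad1 gene, which encode 1 protein, had medians of 15.1% (nad1a), 32.5% (nad1b) and 18.1% (nad1c). The large membrane subunit nad4 (16.2%) and the nad5 part nad5a (17.2%) were close to each other. Another part of nad5, nad5b, is 22 nt long, shorter than a footprint, and its level (0% to 88.4%) is not interpretable.

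Genes for ribosomal proteins and for cytochrome c maturation were far lower. The 7 ribosomal protein genes had medians between 1.65% (rpl2) and 7.27% (rpl5) of cox1, and the 5 ccm genes between 0.973% (ccmFN1) and 2.64% (ccmC). The scale is mixed here too, since ccmC alone of the ccm genes had a copy added. As counted, its median was 1.17%, below ccmFC (1.64%) and ccmFN2 (1.29%). The entries ccmFC, ccmFN1, ccmFN2, matR and mttB match nuclear DNA over their whole length and had no copy added. The transport gene mttB, a homologue of bacterial TatC, had a median of 1.02% and the maturase matR, which lies inside an intron of nad1, the lowest at 0.238% (0.0416% to 0.733%). No ribosomal protein, ccm, matR or mttB level in any library reached the lowest level of a complex III, complex IV or ATP synthase gene.

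**Figure D4:**
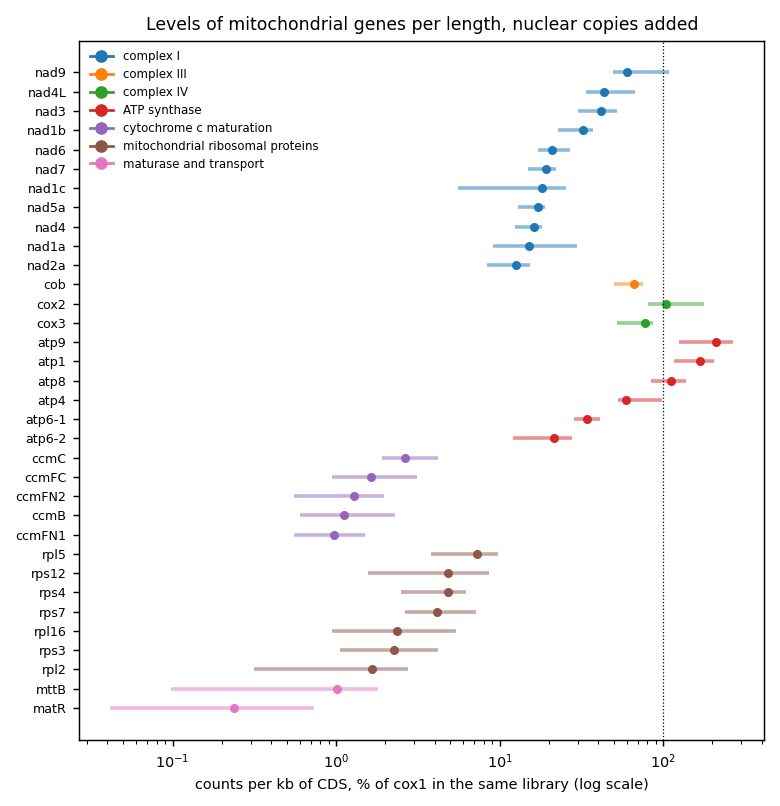
Counts per kb of CDS of the known mitochondrial genes with nuclear copies added, as a percent of cox1 in the same library on a log scale. Points are medians and bars the lowest and highest of 14 libraries, cox1 is the dotted line at 100%, and nad5b (22 nt) is left out. Genes of ATP synthase reach 210% (atp9), and matR is lowest at 0.238%.

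The first comparison set MNase against RNase I in 8-day seedlings. MNase prefers to cut next to A and T or U and needs calcium, and RNase I cuts after all bases. Among 44 mitochondrial entries tested, 15 passed an adjusted p of 0.05 (edgeR quasi-likelihood test, Benjamini-Hochberg over all 16738 genes), or 34.1%, beside 1.94% of all genes tested. Of the 15, 10 were lower and 5 higher with MNase (1 lower and 8 higher of 9 calls when scaled to the mitochondrial total without ATMG00280), beside 0.633% lower and 1.3% higher of all genes. Among chloroplast entries, 21 of 85 passed (24.7%), 13 lower and 8 higher, with a median log2 fold change of -0.03. The median log2 fold change was -0.23 over the mitochondrial entries and -0.01 over all genes tested, and the nuclear-encoded partners in complexes I to IV and ATP synthase had 0 of 47 past the threshold and a median of 0.11. These partners, here and below, include cytochrome c and 5 genes of complex II, which has no subunit among the 36 known mitochondrial genes. ATMG00280 itself did not pass (log2 fold change -0.06, SE 0.04, adjusted p = 0.583 by edgeR).

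The lower entries were genes of the respiratory complexes. The most counted of them, cox1, had 674, 651 and 567 CPM (with TMM-scaled library sizes) at 75, 150 and 300 U MNase, against 801, 802 and 751 at 62.5, 125 and 250 U RNase I (log2 fold change -0.32, SE 0.06, adjusted p = 0.000611 by edgeR). The ATP synthase gene atp1 had 548, 505 and 471 CPM with MNase, against 663, 686 and 641 with RNase I (log2 fold change -0.39, SE 0.06, adjusted p = 3.52e-05 by edgeR). For both genes every MNase library lay below every RNase I library.

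Cytochrome b, encoded by cob, had 148, 151 and 157 CPM with MNase, against 203, 211 and 195 with RNase I (log2 fold change -0.42, SE 0.07). The complex I subunit nad9 had 136, 116 and 109 CPM with MNase, against 173, 171 and 149 with RNase I (log2 fold change -0.45, SE 0.08). Here too the groups did not overlap. In complex I, 5 of 11 tested entries fell, the other 4 being nad1a (log2 fold change -0.63), nad1b (-0.51), nad5a (-0.39) and nad4 (-0.39). In complex IV 2 of 3 fell, with cox3 at -0.39 and cox2, at -0.16, not past the threshold, and in ATP synthase 2 of 6 fell, with atp8 at -0.34 and atp6-1 (-0.36), atp6-2 (-0.30) and atp4 (-0.24) not past it. The 5 ccm genes had 0 calls, with values between -0.57 (ccmB) and 0.28 (ccmC), and ccmFN1 at -0.46 and ccmFC at -0.24.

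The higher entries had few counts. The transport gene mttB (Mt:157491-158348, plus strand) had 6.21, 5.02 and 5.16 CPM with MNase, against 1.34, 1.1 and 2.50 with RNase I (log2 fold change 1.66, SE 0.45, adjusted p = 0.0370 by edgeR). The ribosomal protein gene rpl16 (Mt:25079-25615, minus strand, overlapping rps3 on the same strand) had 8.23, 12.0 and 8.52 CPM with MNase, against 2.91, 3.96 and 5.58 with RNase I (log2 fold change 1.18, SE 0.31, adjusted p = 0.0303 by edgeR). All 3 MNase libraries exceeded all 3 RNase I libraries for both. The counts of mttB were 40, 58 and 43 with MNase, against 6, 5 and 17 with RNase I.

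The other ribosomal protein genes with larger changes, rps7 (-0.52), rps4 (-0.42) and rpl2 (0.23), did not pass, nor did matR (1.06). Open reading frames of unknown function made up the rest of the higher calls. ATMG00660 had 9.0, 6.32 and 6.48 CPM with MNase, against 2.69, 0.880 and 1.32 with RNase I (log2 fold change 2.16, SE 0.43). ATMG01200 (2.67) and ATMG00690 (3.22) had 0 to 7 counts in each RNase I library. Both entered the test through the MNase libraries alone and were not tested without any 1 of them, so these 2 of the 5 higher calls are not support for a difference. Leaving out 1 library at a time left 6 to 14 calls, beside 131 to 403 of all genes tested. Calls were fewest without the 62.5 U RNase I library (6 of 44, beside 131 of all 16613 genes). Without the 125 U RNase I library it was 8 of 44, beside 156 of all 16593 genes. The entries nad9, cob, ATMG00660, atp1 and cox1 passed in each of these 6 fits. Without the 62.5 U library, calls of nad1a, nad1b, nad4, nad5a, cox3, atp8, mttB and rpl16 were among those lost, and over the 6 fits the highest adjusted p was 0.223 for mttB, 0.257 for rpl16 and 0.188 for nad1a (edgeR). In 1 fit over all 11 libraries, 0 of 46 entries passed by edgeR (21 at an unadjusted p under 0.05), beside 6 of all 17224 genes (1223 unadjusted). In the comparison of these 6 libraries alone, DESeq2 called 13 of 44 entries, all lower, beside 400 of all 16738 genes.

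The second comparison set 14-day against 8-day seedlings, both digested with RNase I. Age, day length, sucrose in the medium and dose changed together and cannot be told apart. This comparison shares its 8-day libraries with the first. Of 40 mitochondrial entries tested, 31 passed (77.5%), 30 lower and 1 higher in 14-day plants when scaled to the whole library, beside 50.4% of all 15460 genes tested, 25.1% lower and 25.3% higher (edgeR, adjusted p under 0.05). The median log2 fold change was -0.75 for mitochondrial entries, -1.09 for the chloroplast entries and 0.01 for all genes. Of the nuclear-encoded partners, 34 of 47 passed, 31 of them lower, with a median of -0.36, from -0.65 for ATP synthase (9 of 9 lower) to 0.02 for complex IV (1 of 5 lower, 2 higher). Root markers were lower by a median of -2.03 on the log2 scale, with 6 of 6 tested lower, and their part in these results was not tested.

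ATP synthase genes fell as a whole set, 6 of 6. The ring subunit atp9 had 62.7, 68.2 and 67.7 CPM in 14-day libraries, against 155, 167 and 149 in 8-day libraries (log2 fold change -1.24, SE 0.09, adjusted p = 1.38e-18 by edgeR). The alpha subunit atp1 had 404, 441 and 416 CPM in 14-day libraries, against 676, 699 and 654 in 8-day libraries (log2 fold change -0.69, SE 0.06). Neither gene overlapped between the groups. The others were atp8 (log2 fold change -0.75), atp6-1 (-0.65), atp6-2 (-0.57) and atp4 (-0.47).

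Within complex IV the 3 genes diverged. Cytochrome oxidase subunit III, cox3, had 87.7, 80.4 and 84.3 CPM in 14-day libraries, against 176, 163 and 165 in 8-day libraries (log2 fold change -0.998, SE 0.08). The core subunit cox1 had 586, 559.6 and 526 CPM in 14-day libraries, against 816, 817 and 767 in 8-day libraries (log2 fold change -0.52, SE 0.06). In contrast, cox2 had 383, 381 and 348 CPM in 14-day libraries, against 326, 363 and 353 in 8-day libraries, so the groups overlapped (log2 fold change 0.09, SE 0.07, adjusted p = 0.265 by edgeR). The difference between the cox genes was not tested.

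In complex III, cob had 98.3, 116 and 102 CPM in 14-day libraries, against 206, 215 and 199.6 in 8-day libraries (log2 fold change -0.98, SE 0.08). In complex I, 10 of 11 entries fell. The parts of nad1 had log2 fold changes of -1.28 (nad1a), -0.85 (nad1b) and -0.81 (nad1c), and nad2a, nad4, nad5a and nad4L lay between -0.87 and -0.73. Smaller decreases were measured for nad3 (-0.58), nad7 (-0.42) and nad9 (-0.24), and nad6 (-0.23, adjusted p = 0.103 by edgeR) did not pass.

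Of the 7 ribosomal protein genes, 4 fell, namely rps12 (log2 fold change -1.55), rps7 (-1.25), rps4 (-0.86, with overlapping groups) and rpl5 (-0.67), while rpl16 (0.54), rpl2 (-0.19) and rps3 (-0.11) did not pass. Of the 5 ccm genes, ccmB (-1.39), ccmFN2 (-1.08) and ccmFN1 (-1.08) fell, and ccmC (0.37) and ccmFC (0.33) did not pass. In every 14-day library of this comparison rps12, ccmB and ccmFN2 were under 10 counts. They entered the test through the 8-day libraries alone, so their calls are not support for a difference. The sole higher entry was mttB, with 5.09, 5.02 and 4.92 CPM in 14-day libraries, against 1.37, 1.12 and 2.55 in 8-day libraries (log2 fold change 1.49, SE 0.43, adjusted p = 0.00319 by edgeR), groups that did not overlap. It had 13, 12 and 16 counts in 14-day libraries, against 6, 5 and 17 in 8-day libraries. Its counts at 62.5 and 125 U were thus under the minimum of 10, and its call rests on few counts.

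Among the other frames, ATMG00280 had 2048, 2010.2 and 1470 CPM in 14-day libraries, against 4458, 4434 and 4447 in 8-day libraries (log2 fold change -1.27, SE 0.07), and ATMG01330 (-1.23), ATMG01280 (-1.09) and ATMG00040 (-0.84) fell too. ATMG01330, with 3, 3 and 4 counts in 14-day libraries, also entered the test through the 8-day libraries alone. Its call is not support for a difference. When any 1 library was left out, 25 to 27 entries passed, beside 6604 to 7009 of all genes tested (14304 to 15341). Of the 31, 22 passed in each of the 6 fits. The 9 that did not were nad9, which lost its call without the 700 U library (adjusted p = 0.141 by edgeR), and 8 entries of low counts, rpl5, rps4, rps7, rps12, ccmB, ccmFN1, ccmFN2 and ATMG01330, whose highest adjusted p lay between 0.0152 and 0.154 or which were not tested in some fits. Scaled to the mitochondrial total in place of the whole library, 17 of 40 entries passed, 15 of them higher in 14-day libraries. ATMG00280 was 37.1% to 43.2% of that total in the 14-day libraries and 52.6% to 54.0% of it with RNase I at 8 days. With the total taken without ATMG00280, 17 of 39 passed, 7 higher and 10 lower.

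**Figure D5:**
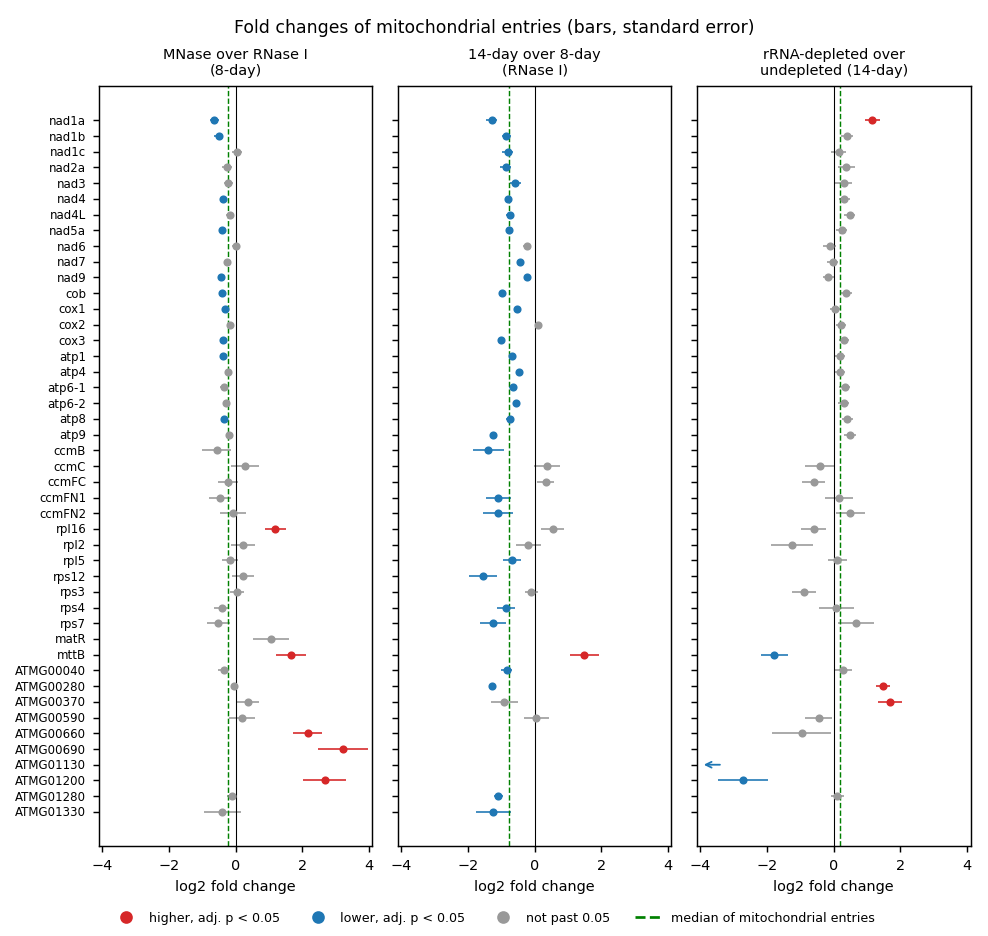
Log2 fold changes (points) with standard errors (bars) of the mitochondrial entries tested in 3 comparisons, by edgeR, grouped by complex from complex I at the top to other frames at the bottom. Red points passed as higher, blue as lower, grey did not pass, and the dashed line is the median of the entries (-0.23, -0.75 and 0.18); the arrow stands for ATMG01130, at 0 counts in both depleted libraries.

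The third comparison set the rRNA-depleted against the undepleted 14-day libraries, which also differ in size range (20 to 35 against 20 to 50 nt) and dose, so these cannot be told apart, and it shares its undepleted libraries with the second. Of 40 mitochondrial entries tested, 6 passed (15%), beside 22.6% of all 15532 genes (10.9% higher, 11.7% lower; edgeR, adjusted p under 0.05). The median log2 fold change was 0.18 for mitochondrial entries and 0.03 for all genes tested. Chloroplast entries were higher in 80 of 84 cases with a median of 1.21. Of the nuclear-encoded partners, 13 of 47 were higher and 0 lower (median 0.32), 7 of them among the 9 of ATP synthase. Root markers were higher in 3 of 4 tested, with a median of 1.45, and their part in these results was not tested. Without TMM the median of all genes was -0.14.

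The entry with the most counts, ATMG00280, was higher, with 4192 and 5622 CPM in depleted V1 and V2, against 1962, 1933 and 1416 in undepleted libraries (log2 fold change 1.47, SE 0.21, adjusted p = 0.00273 by edgeR), and it was the single call that passed in each of the 5 fits without 1 library. The Ycf1-like frame ATMG00370 had 9.51 and 6.93 CPM in depleted libraries, against 2.63, 2.01 and 2.96 in undepleted libraries (log2 fold change 1.68, SE 0.36). Both entries match chloroplast DNA. The nad1 part nad1a had 39.7 and 29.8 CPM in depleted libraries, against 13.9, 14.9 and 17.8 in undepleted libraries (log2 fold change 1.16, SE 0.21, adjusted p = 0.00738 by edgeR). Neither nad1a nor the other entries named here overlapped between groups, and nad1a lost its call without the 400 U library (adjusted p = 0.0531 by edgeR). ATMG00370 lost its call without any 1 of the undepleted libraries (highest adjusted p = 0.0669 by edgeR). The other parts of nad1, nad1b (0.40) and nad1c (0.15), did not pass.

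Of the lower entries, mttB had 1.38 and 1.39 CPM in depleted libraries, against 4.88, 4.83 and 4.74 in undepleted libraries (log2 fold change -1.78, SE 0.41, adjusted p = 0.0176 by edgeR). Its call too was lost without any 1 of the undepleted libraries (highest adjusted p = 0.0671 by edgeR). The counts of mttB were 10 and 6 in depleted V1 and V2, against 13, 12 and 16 in undepleted libraries. ATMG01200 (-2.72) also passed as lower, with 4 and 2 counts in depleted V1 and V2, against 4, 16 and 10 in undepleted libraries. It entered the test through the undepleted libraries alone and was not tested without the 550 U or the 700 U library. Its call is therefore not support for a difference. ATMG01130 had 0 counts in both depleted libraries and 5.63, 7.65 and 1.48 CPM in undepleted libraries, at least 8.89-fold lower against a floor of 3 counts per library (adjusted p = 0.0108 by edgeR). It entered the test through the undepleted libraries alone and was not tested without the 400 U or the 550 U library, so its call is not support for a difference.

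None of the remaining known genes passed. For complexes III and IV and ATP synthase the log2 fold changes were above 0 with scaling to the whole library by TMM (cox1, at -0.13, was below 0 without it), at 0.05 (cox1), 0.21 (cox2) and 0.30 (cox3) in complex IV, 0.38 for cob, and 0.18 (atp4) to 0.49 (atp9) in ATP synthase, with atp8 at 0.41, atp6-1 at 0.33 and atp6-2 at 0.30. In complex I, nad4L (0.48, adjusted p = 0.0659 by edgeR), nad1b (0.40) and nad2a (0.38) were the largest after nad1a. The ribosomal protein genes ran from -1.24 (rpl2) and -0.89 (rps3) over -0.60 (rpl16) to 0.68 (rps7), and the ccm genes from -0.60 (ccmFC) and -0.41 (ccmC) to 0.17 (ccmFN1) and 0.50 (ccmFN2). Without V2, 18 of 39 entries passed, 15 of them higher, beside 5875 of all 14759 genes, and without V1 11 of 38 passed, beside 6080 of all 14487 genes. In both fits the lone depleted library was assumed to vary like the undepleted ones, which alone supplied the spread. Leaving out 1 of the undepleted libraries left 2 to 3 entries passing, beside 1120 to 1245 of all genes tested (15283 to 15470). Set against the 8-day RNase I libraries in place of the 14-day ones, 0 of 42 entries passed by edgeR (20 at an unadjusted p under 0.05), as did 0 of all 16716 genes (1300 at an unadjusted p under 0.05), and the median of the entries was -0.49.

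The depleted V1 library was then set against depleted V2. Single libraries allow no test, so ratios of CPM are given with their counting interval, and a ratio past 2-fold was counted. The 34 entries with at least 10 counts in both had a median log2 ratio of V1 over V2 of 0.49, beside 0.28 over all 14682 genes. Of the 34, 3 passed 2-fold, beside 14.6% of all genes (10.9% higher and 3.69% lower in V1). They were rps4, with 11.5 CPM in V1 and 4.24 in V2 (log2 ratio 1.44, interval 0.74 to 2.19), rps3, with 12.3 CPM in V1 and 5.20 in V2 (1.24, 0.61 to 1.92), and ATMG00040, with 28.9 CPM in V1 and 13.7 in V2 (1.08, 0.68 to 1.49). ATMG00280 had the lowest ratio, with 4311 CPM in V1 and 4688 in V2 (log2 ratio -0.12, interval -0.15 to -0.10). After it nad4 (0.19) and cox2 (0.20) had the lowest ratios among entries with at least 100 counts in sum. The summed root marker level was also higher in V1 (1998 CPM) than in V2 (1212 CPM). PYK10 made up most of it, with 12689 counts in V1 and 6065 in V2, and other root markers differed more, with 431 counts in V1 and 22 in V2 for IRT1, an iron transporter, and 24 in V1 and 1 in V2 for the aquaporin TIP2;3. The part of root material in the ratios was not tested.

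The repeat and the original 700 U library were made from the same RPFs and amplified separately. Of 32 entries, 1 was past 2-fold higher in the repeat (rps4, 42 against 14 counts) and 1 past 2-fold lower (ccmC, 11 against 19 counts), beside 6.43% of all 13680 genes (3.11% higher and 3.33% lower). The median log2 ratio was 0.05. Among entries with at least 100 counts in sum, the highest were nad2a with 28.1 CPM in the repeat and 15.9 in the original (log2 ratio 0.82, interval 0.34 to 1.32), nad4L (0.75) and nad9, with 200.5 CPM in the repeat and 123 in the original (0.71, 0.53 to 0.88). ATMG00280 differed too, with 2218 CPM in the repeat and 1460.0 in the original (0.60, 0.55 to 0.65). The lowest were ATMG00040 (-0.19), nad1a (-0.15) and cox3 (-0.13), whose intervals include 0. The log2 ratio of nad9 between these libraries exceeded the size of its log2 fold change in each of the 3 comparisons (-0.45, -0.24 and -0.16).

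In the separate table, the ligation-free library was compared with the ligation-based library. Of 28 entries, 0 were past 2-fold, beside 3.61% of all 13019 genes (2.03% higher and 1.58% lower), and the median log2 ratio was 0.19, against 0.06 over all genes. Among entries with at least 100 counts in sum, the highest ratios were atp6-2, with 50.9 CPM in the ligation-free and 26.3 in the ligation-based library (log2 ratio 0.95, interval 0.55 to 1.38), atp6-1, with 43.6 CPM in the ligation-free and 25.1 in the ligation-based library (0.80, 0.38 to 1.24), and ATMG01280 (0.78). The atp6 genes share most of their sequence, so reads from the common part cannot be assigned. The lowest under the same limit were atp4, with 92.1 CPM in the ligation-free and 118 in the ligation-based library (-0.35, -0.58 to -0.13), cox3 (-0.13) and nad5a (-0.07). For cox1 the ligation-free library had 457 CPM and the ligation-based library 329 (0.47, 0.36 to 0.60).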

How the data were processed

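Ribosome-protected fragments of Arabidopsis seedlings were sequenced in 14 libraries (2 further tobacco libraries were left out). Reads were trimmed by the authors with cutadapt, who set aside reads of rRNA, tRNA and snoRNA, aligned the rest with STAR to TAIR10 with the Ensembl Plants annotation, keeping 1 alignment for each read that maps to several places, and deposited counts per CDS made with featureCounts, with no normalization. Tool versions: not given in the sources used. A deposited read summary gave the counts of reads per genome. The counts were used as deposited, and 0 columns of per-sample values were left out. Total CDS counts were 2338819 to 11583740 per library, and intervals cover counting error only.

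The members and lists were chosen with earlier results of these data known. Groups came from the labels, and the doses served as replicates. Genes with at least 10 counts in as many libraries as the smaller group holds were kept, scaled by TMM and tested with edgeR 4.0.16 quasi-likelihood F tests (limma 3.58.1, R 4.3.3) with Benjamini-Hochberg adjustment over all genes tested, separately for each comparison, and the SE of a log2 fold change was its size over the square root of F. CPM are on the TMM scale in these comparisons and relative to the plain CDS total in the single-library pairs, where entries with at least 10 counts in both libraries were used. Shares were compared by exact permutation tests (scipy 1.17.1). Copies were found with BLAST 2.17.0 against RefSeq sequences at 95% identity over 80% of an entry. Of 4315 chromosome 2 genes in both annotations, 4315 had their exons inside RefSeq coding sequences, whereas mitochondrial coordinates of the table and of RefSeq differ. Entries named with values were those past the threshold, up to 4 of the largest changes per list, the 10 highest levels and, in pairs, the 3 highest and lowest ratios with at least 100 counts in sum; nad6, rpl16, rps3 and further members were added to complete a list. On simulated data, 200 genes above a limit of counts were changed 4-fold, with the same dispersion for all genes. Of these, 200 were recovered for MNase against RNase I (16522 genes), 200 for 14-day against 8-day (15098 genes) and 193 for depleted against undepleted (15231 genes). Among the unchanged genes 12, 8 and 11 were called, in the same order. Recovery of smaller changes, or of entries with few counts, was not simulated. Alternatives were DESeq2 1.42.0, other library sizes, no low-count filter, all 11 libraries in 1 fit, copies added, ATMG00280 left out and each library left out.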

Additional observations from a re-analysis of the deposited data

Results flagged for a closer look

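Counts outside the mitochondrial entries carried the same sequences. Over the 14 libraries, 87550 counts fell on the chromosome 2 genes that match mitochondrial entries, without the rbcL-like gene. They are noted because no comparison uses them except as copies added.

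Among reads placed on the mitochondrial genome, 65.6% in the library with the lowest value and 79.2% in that with the highest were not counted over a CDS entry, a signal outside the main measurement. The lowest was MNase 75 U and the highest depleted V1.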

How the results depend on the processing

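Main limits were the doses serving as replicates, low counts of ribosomal protein, ccm, matR and mttB entries, and sequence shared with rbcL and chromosome 2. No paired analysis was possible because the doses differ between the groups compared and no label pairs their libraries. Over all alternatives, 92 summary values stayed the same, 20 moved and 2 reversed, and of the values of single entries 980 stayed the same, 116 became weaker, 35 stronger and 60 reversed. The cause was not tested.

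The number of entries past the threshold in MNase against RNase I was 0 with all 11 libraries in 1 fit, beside 6 of all 17224 genes. At an unadjusted p under 0.05 by edgeR it was 21, beside 1223 of all genes. It was 9 with the mitochondrial total without ATMG00280 as library size (8 higher, 1 lower). Leaving out 1 library left 6 to 14, beside 131 to 403 of all genes tested. In 14-day against 8-day it was 17 with the mitochondrial total and 17 with that total without ATMG00280. Leaving out 1 library left 25 to 27, beside 6604 to 7009 of all genes tested. In depleted against undepleted it was 23 with the mitochondrial total (1 higher, 22 lower), 11 with all 11 libraries in 1 fit, 0 with the 8-day RNase I libraries as the reference (20 at an unadjusted p under 0.05 by edgeR, and 0 of all 16716 genes adjusted), and 2 to 18 leaving out 1 library. Past 1.5-fold there were 13 of 34 entries in V1 against V2, beside 5487 of all 14682 genes. In the repeat against the original there were 8 of 32, beside 3045 of all 13680 genes. In ligation-free against ligation-based there were 6 of 28, beside 2359 of all 13019 genes. When each library of a pair had to hold 100 counts or more, 0 of 19 entries were past 2-fold in V1 against V2, beside 424 of all 5524 genes. Under the same limit it was 0 of 17 in the repeat against the original, beside 18 of all 4640 genes. The cox1 level was 34670 with copies added. The share of depleted against undepleted libraries differed by -0.0014 percentage points without ATMG00280, and the share of all trimmed reads was 0.150 percentage points higher with MNase.

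With the mitochondrial total as library size, log2 fold changes turned in MNase against RNase I for cox2 (0.0081), in 14-day against 8-day for ATMG00040 (0.071), nad9 (0.66), rpl5 (0.24), nad2a (0.024), rps4 (0.027), atp6-1 (0.25), atp8 (0.15), nad7 (0.47), nad5a (0.15), nad1c (0.098), nad4 (0.094), atp4 (0.43), nad4L (0.18), nad3 (0.32), nad1b (0.056), atp6-2 (0.33), atp1 (0.22) and cox1 (0.38), and in depleted against undepleted for cox2 (-0.63), cob (-0.45), nad2a (-0.43), atp6-1 (-0.51), atp8 (-0.42), nad4L (-0.38), cox3 (-0.55), ccmFN1 (-0.67), ccmFN2 (-0.32), atp9 (-0.35), nad1b (-0.44), atp6-2 (-0.53), rps7 (-0.12) and cox1 (-0.80). With that total without ATMG00280, they turned for cox2 (0.14) and ccmFC (0.024) with MNase, for nad9 (0.32), nad7 (0.13), atp4 (0.083) and cox1 (0.034) in 14-day plants, and for ccmFN1 (-0.019) and cox1 (-0.12) in depleted libraries.

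With the 8-day libraries as the reference of the depleted ones, they turned for cob (-0.60), nad2a (-0.49), atp6-1 (-0.33), atp8 (-0.35), nad4L (-0.27), cox3 (-0.71), ccmFN1 (-0.92), ccmFN2 (-0.59), atp9 (-0.77), nad1b (-0.46), atp6-2 (-0.28), rps7 (-0.58), nad1a (-0.14) and cox1 (-0.49). Without TMM they turned for ccmFN1 (-0.0046) and cox1 (-0.13) in depleted libraries. With copies added it turned for ccmC in 14-day plants (-0.0036). Leaving out 1 library gave -0.59 to 0.0032 for ccmFC with MNase (above 0 without 300 U MNase) and -0.021 to 0.44 for ccmFN1 in depleted libraries (below 0 without 400 U RNase I).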
